A study of Homo sapiens with 9 samples.

Results

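The cytosolic ribosomal protein genes were taken from the expression table as the rows whose symbol was RPSA or had the usual form of a ribosomal protein symbol (RPL or RPS with a number and at most the letters A, X or L, or RPLP0, RPLP1 and RPLP2). The rule found 82 of the 60564 rows, 32 for proteins of the small subunit and 50 for proteins of the large subunit. It left out 951 rows of ribosomal protein pseudogenes. It also left out a few ribosomal proteins with other kinds of symbol, such as FAU and RACK1, which are described near the end. Of the 82 genes, 80 had at least 1 FPKM (fragments per kilobase of transcript, scaled to the mapped fragments of the library) in at least 3 of the 9 libraries and were tested. The muscle form RPL3L reached at most 0.145 FPKM and the testis form RPL10L was listed at 0 in all 9 libraries, so neither was tested.

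RNA was sequenced from BxPC3 cells, a human line established from ductal adenocarcinoma of the pancreas, with 3 libraries in each of 3 groups. Cells had received the code-named compound WB436B at 0.1 µM, small interfering RNA (siRNA) that targets STAT3, or vehicle. The sources used here name neither a non-targeting siRNA nor the length of treatment. Libraries of a group are labelled biological replicates with no word on separate cultures, so the p-values reflect the spread between libraries, which may be technical.

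The ribosome is built of a small subunit, which reads the mRNA, and a large subunit, which joins the amino acids, and each holds a single copy of most of its proteins. The transcripts of these proteins are among the most abundant in growing cells, and most of them begin with a C followed by a run of pyrimidines, the 5' terminal oligopyrimidine (TOP) sequence, through which the mTOR pathway and the RNA-binding protein LARP1 set their translation and stability. Cancer cells are known for high ribosome production, and free ribosomal proteins such as RPL5 and RPL11 bind the p53 regulator MDM2.

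The annotated starts of the members carried that sequence. RefSeq start windows on GRCh38.p14 were found for 65 of the 82 members, and 54 of the 65 (83.08%) had a TOP-like start, a C within 5 bases of an annotated start followed by at least 4 pyrimidines, against 25.22% of 27305 genes with an entry. The share was 20 of 25 for the small subunit and 34 of 40 for the large subunit. The windows below belong to members that moved most in one of the comparisons. They run 5′ to 3′ along the transcript with 15 bases before and 15 bases from the annotated start, and capitals mark the TOP-like tract.
RPL36, chr19:5690280-5690309, plus strand: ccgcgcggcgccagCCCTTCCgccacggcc
RPS27, chr1:153990747-153990776, plus strand: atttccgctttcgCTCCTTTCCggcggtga
RPL41, chr12:56116618-56116647, plus strand: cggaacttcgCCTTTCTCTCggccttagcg
RPL35, chr9:124861943-124861972, minus strand: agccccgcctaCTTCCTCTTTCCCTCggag
RPL37A, chr2:216498829-216498858, plus strand: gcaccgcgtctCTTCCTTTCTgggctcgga
RPL29, chr3:51995881-51995910, minus strand: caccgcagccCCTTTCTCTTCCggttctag
RPL24, chr3:101686704-101686733, minus strand: ttcccatgattCTCTCTTTCTTTTCgccat
RPL19, chr17:39200308-39200337, plus strand: gagcgagctctttCCTTTCgctgctgcggc
RPL22, chr1:6199581-6199610, minus strand: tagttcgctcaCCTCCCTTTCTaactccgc
RPL36AL, chr14:49620612-49620641, minus strand: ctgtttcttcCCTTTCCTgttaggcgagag
RPL3, chr22:39319609-39319638, minus strand: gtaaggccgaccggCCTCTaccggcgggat
RPS26, chr12:56041903-56041932, plus strand: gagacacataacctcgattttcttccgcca
RPL6, chr12:112411428-112411457, minus strand: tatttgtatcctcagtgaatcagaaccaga

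RPS26 and RPL6 are printed without capitals because no TOP-like tract lay at the start listed for them. Members with a TOP-like tract stood in both directions: RPL36, RPS27 and RPL41 were among the largest increases under STAT3 siRNA, and RPL36AL and RPL3 were the only members called lower there. Among other short motifs searched on both strands in the 300 bases around the start, the ETS core CCGGAA was present in 37 of the 65 members (56.92%), against 20.1% of all genes. The YY1 motif AAGATGGC was present in 6 (9.231%), against 3.523% of all genes. The STAT-type motif TTCNNNGAA was present in 2 (3.077%), against 9.376% of all genes, TATAAA in 6 (9.231%), against 13.99%, and the E-box CACGTG in 4 (6.154%), against 8.775%. The 82 genes lay on 21 chromosomes, with the most, 12, on chromosome 19.

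The cell line label was checked against marker genes. The 8 markers of pancreatic ductal epithelium summed to 1100 to 1290 FPKM per library, while 5 acinar and 4 islet markers summed to at most 0.0828 FPKM. Fibroblast markers summed to 0.721 to 0.881 FPKM in WB436B libraries and 3.43 to 3.77 FPKM in STAT3 siRNA libraries, against 1.89 to 2.12 FPKM in vehicle libraries. In the same order, leukocyte markers summed to 3.13 to 3.55 FPKM and 3.86 to 6.11 FPKM, against 5.9 to 8.26 FPKM. Endothelial markers summed to 0.368 to 0.568 FPKM and 0.235 to 0.382 FPKM, against 0.739 to 1.05 FPKM. The targeted gene, STAT3, reached 2.58 to 3.02 FPKM after STAT3 siRNA and 10.5 to 10.9 FPKM after WB436B, against 15.1 to 16.4 FPKM after vehicle. Depth was estimated at 14900000 to 47200000 fragments a library. Transcripts encoded by mitochondrial DNA took 31.6% to 32.5% of all FPKM in WB436B libraries and 32.1% to 32.5% in STAT3 siRNA libraries, against 34.9% to 38.4% in vehicle libraries. Since FPKM is relative to the library, that share moves with the share left for all other genes, and its part in the results on the members was not tested. In RNA from a whole culture, fewer cells with a transcript and less transcript per cell cannot be told apart.

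The tested members spanned a wide range of levels. Under vehicle the median member averaged 130 FPKM, with a middle range of 72.3 to 210 FPKM. RPL13A, a large-subunit protein also known for silencing translation after interferon gamma, had the highest vehicle mean, with 711, 688 and 635 FPKM in WB436B libraries and 710, 719 and 710 FPKM in STAT3 siRNA libraries, against 630, 651 and 694 FPKM in vehicle libraries. RPS2, a protein of the small subunit at the mRNA entry, was also among the highest. RPS2 stood at 587, 608 and 698 FPKM in WB436B libraries and 740, 602 and 688 FPKM in STAT3 siRNA libraries, against 555, 498 and 536 FPKM in vehicle libraries, where it was lower than in any treated library. RPS2 was called higher under WB436B (0.25, adjusted p = 0.042) and STAT3 siRNA (0.35, adjusted p = 0.013), neither after quantile normalization (-0.025 and 0.05), and the WB436B call was also lost without vehicle 2 or 3, STAT3 siRNA 3, WB436B 2 or WB436B 3 (0.17 to 0.27). RPL13A and RPS2 overlapped each other in the libraries of both treatments, where their order is therefore not fixed, and RPL13A lay above RPS2 in all vehicle libraries.

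At the other end stood RPS27L, RPL39L and RPS29. RPS27L, a form of RPS27 known as a target of p53, averaged 1.39 FPKM under WB436B and 1.46 FPKM under STAT3 siRNA, against 1.5 FPKM under vehicle. RPL39L, a form of RPL39 best known from testis, averaged 5.80 FPKM under WB436B and 4.29 FPKM under STAT3 siRNA, against 4.64 FPKM under vehicle. RPS29, a zinc-binding protein of the head of the small subunit, stood at 8.73, 6.66 and 5.39 FPKM in WB436B libraries and 10.0, 7.71 and 12.15 FPKM in STAT3 siRNA libraries, against 6.31, 5.52 and 8.26 FPKM in vehicle libraries. The levels of RPS29 and RPS27L are divided by long annotated exon unions of 9845 and 9127 bases, which lowers their FPKM relative to members with short annotations. Ranked by fragments under vehicle, without division by length, RPS29 and RPS27L still held ranks 78 and 79 of 82.

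The members together held more of the library in both treated groups than under vehicle. Their FPKM summed to 15962, 15223 and 13662 in WB436B libraries and 16342, 16043 and 17224 in STAT3 siRNA libraries, against 13421, 12727 and 14355 in vehicle libraries. The STAT3 siRNA libraries lay above all vehicle libraries, whereas the WB436B library numbered 3 (WB436B 3) lay within the vehicle range. As a share of all FPKM, the sums averaged 5.43% ± 0.33 under WB436B and 5.94% ± 0.147 under STAT3 siRNA, against 4.67% ± 0.249 under vehicle (SD, n = 3 each). By share of all FPKM, every library of either treatment lay above every vehicle library, with 5.08% as the lowest treated value and 4.88% as the highest vehicle value. All FPKM include transcripts encoded by mitochondrial DNA, which took 31.6% in WB436B 3 and 34.9% to 38.4% in vehicle libraries. Whether WB436B 3 stays above the vehicle libraries without those transcripts was not tested. Pseudogene rows carried a further 23.6% to 27.0% of the member sums, so that fragments shared between a gene and its copies cannot be placed with certainty.

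Both subunits contributed to these sums. The small-subunit sum averaged 5993 ± 520 FPKM under WB436B and 6837 ± 256 FPKM under STAT3 siRNA, against 5455 ± 311 FPKM under vehicle (SD, n = 3 each). The large-subunit sum averaged 8956 ± 662 FPKM under WB436B and 9700 ± 372 FPKM under STAT3 siRNA, against 8046 ± 506 FPKM under vehicle. The ratio of small to large was 0.685, 0.657 and 0.664 in WB436B libraries and 0.693, 0.715 and 0.707 in STAT3 siRNA libraries, against 0.680, 0.681 and 0.674 in vehicle libraries. The STAT3 siRNA ratios lay above all vehicle ratios, and the WB436B ratios lay on both sides of them, though 3 against 3 libraries allow no two-sided exact permutation p below 0.1. On the log2(FPKM + 1) scale, the median small-subunit level minus the median large-subunit level was 0.0639 ± 0.111 under WB436B and 0.166 ± 0.17 under STAT3 siRNA, against 0.0204 ± 0.0501 under vehicle. Neither difference from vehicle was larger than the SD of the treated group, but that of STAT3 siRNA was larger than the vehicle SD. It rested mostly on STAT3 siRNA 2, which stood at 0.36, and was 0.0481 without that library.

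**Figure D1:**
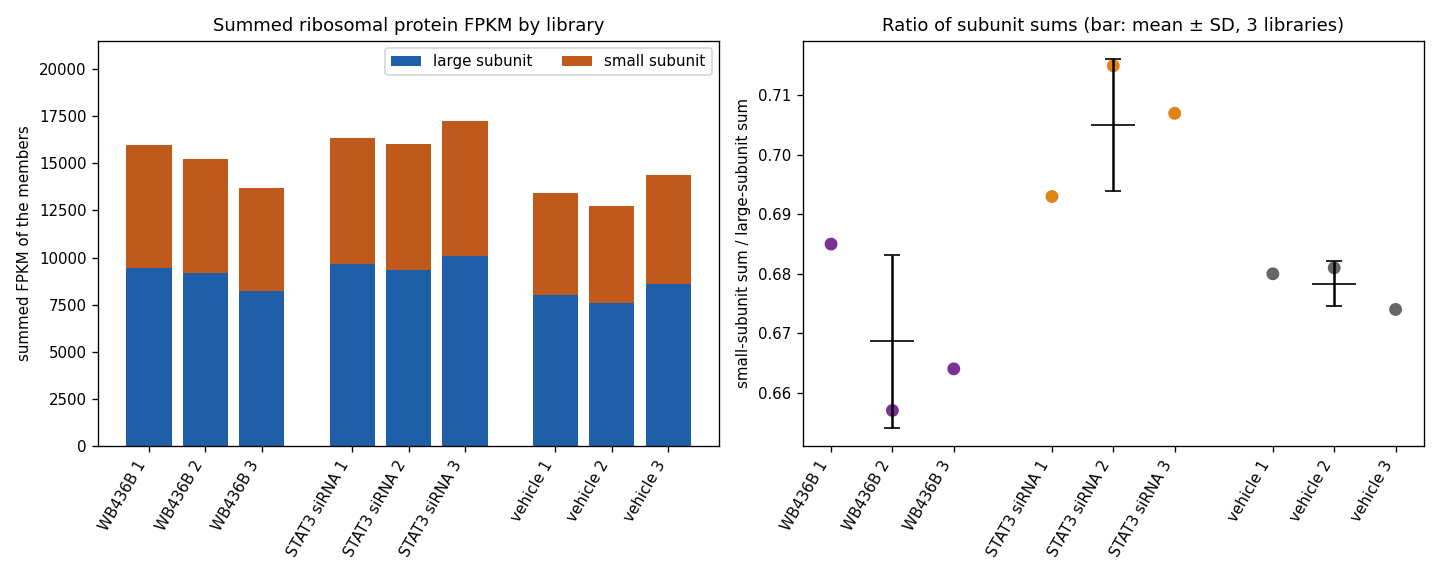
Left, summed FPKM of the 82 ribosomal protein genes in each library, stacked as large-subunit and small-subunit genes; right, the ratio of the small-subunit sum to the large-subunit sum, with a bar for the mean ± SD of 3 libraries. The STAT3 siRNA libraries have the highest sums (16043 to 17224 FPKM) and ratios (0.693 to 0.715), and WB436B 3 has a sum of 13662 FPKM, inside the vehicle range.

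Many ribosomal protein transcripts were modestly higher under STAT3 siRNA. Against vehicle, 42 of the 80 tested members were called higher (52.5%) at an adjusted p below 0.05 in limma, where 29.8% of all genes tested (12747) were called higher. Only 2 members were called lower, where 22.3% of all genes were. The median log2 fold change of FPKM + 1 was 0.33 over the members and 0.06 over all genes, and 70 of the 80 members had a positive value. All 3 STAT3 siRNA libraries lay above all 3 vehicle libraries for 48 members (60%), where this held for 35.1% of all genes. The calls fell on 17 of 32 small-subunit genes (53.1%, median 0.35) and 25 of 48 large-subunit genes (52.1%, median 0.31). The count of members called higher was 29 (36.2%) without vehicle 2, where 27% of all genes were, the lowest when 1 library was left out. It was also 29 without STAT3 siRNA 3, where 26.3% of all genes were. Under the other scalings it was 31 to 53 (38.8% to 66.2%), where 24.3% to 33% of all genes were. The members' median lay 0.25 to 0.28 above that of all genes under them.

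The largest increase belonged to RPL37, a zinc-binding protein of the large subunit. It stood at 147, 134 and 169 FPKM in STAT3 siRNA libraries, against 95.05, 81.2 and 97.8 FPKM in vehicle libraries. All STAT3 siRNA libraries lay above the vehicle libraries, their mean was 164% of that under vehicle, and the log2 fold change was 0.71 (SE 0.175, adjusted p = 0.0091, limma). RPL36, a large-subunit protein, stood at 64.5, 65.7 and 77.8 FPKM in STAT3 siRNA libraries, against 46.2, 40.4 and 47.4 FPKM in vehicle libraries. Here too the groups did not overlap, and the log2 fold change was 0.62 (SE 0.122, adjusted p = 0.0029).

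RPS27, a zinc-binding protein of the small subunit, stood at 380, 322 and 424 FPKM in STAT3 siRNA libraries, against 258, 215 and 281 FPKM in vehicle libraries. The groups did not overlap, and the log2 fold change was 0.58 (SE 0.177, adjusted p = 0.024). That call was lost without vehicle 2 (0.47), STAT3 siRNA 1 (0.56) or STAT3 siRNA 3 (0.48). RPL41, the shortest ribosomal protein with 25 codons, stood at 651, 618 and 702 FPKM in STAT3 siRNA libraries, against 462, 414 and 482 FPKM in vehicle libraries. Its lowest STAT3 siRNA library exceeded its highest vehicle library by a wide margin, with a log2 change of 0.54 (SE 0.146, adjusted p = 0.014). Pseudogene rows named after RPL41 summed to 1310 FPKM under vehicle, more than the gene itself, so its level depends on how shared fragments were assigned.

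RPS26, which lies at the mRNA exit channel of the small subunit, had little spread among the STAT3 siRNA libraries. It stood at 182, 178 and 189 FPKM there, against 122, 119 and 139 FPKM in vehicle libraries, a log2 change of 0.53 (SE 0.0719, adjusted p = 0.00038). RPL35, a protein of the peptide tunnel exit, stood at 396, 378 and 416 FPKM in STAT3 siRNA libraries, against 278, 248 and 303 FPKM in vehicle libraries. The groups of RPL35 were well apart, with a log2 change of 0.52 (SE 0.112, adjusted p = 0.0044). RPL37A, another zinc-binding protein of the large subunit, stood at 69.2, 65.7 and 79.6 FPKM in STAT3 siRNA libraries, against 49.5, 44.8 and 54.5 FPKM in vehicle libraries. Every STAT3 siRNA library was higher, and the log2 fold change was 0.52 (SE 0.148, adjusted p = 0.018), with the call lost without vehicle 2 (0.45) or STAT3 siRNA 3 (0.44). RPL23, which lies at the interface between the subunits, stood at 89.9, 85.4 and 89.3 FPKM in STAT3 siRNA libraries, against 56.6, 61.5 and 68.2 FPKM in vehicle libraries, a log2 change of 0.50 (SE 0.0956, adjusted p = 0.0024).

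The 2 members called lower under STAT3 siRNA rested on small differences. RPL3, a protein near the peptidyl transferase centre, stood at 176, 165 and 174 FPKM in STAT3 siRNA libraries, against 212, 206 and 208 FPKM in vehicle libraries. Its groups did not overlap, and it fell by 0.28 on the log2 scale (SE 0.104, adjusted p = 0.047), but the call was lost without any single vehicle or STAT3 siRNA library (-0.26 to -0.30) and without WB436B 2. RPL36AL, a second form of RPL36A, stood at 127, 136 and 141 FPKM in STAT3 siRNA libraries, against 160, 149 and 170.5 FPKM in vehicle libraries. It fell by 0.24 (SE 0.0804, adjusted p = 0.034) with groups that did not overlap, and the call was lost without vehicle 1 or 3, STAT3 siRNA 1 or 2, or WB436B 2 (-0.19 to -0.25). When every library was scaled to the same total, neither was called.

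**Figure D2:**
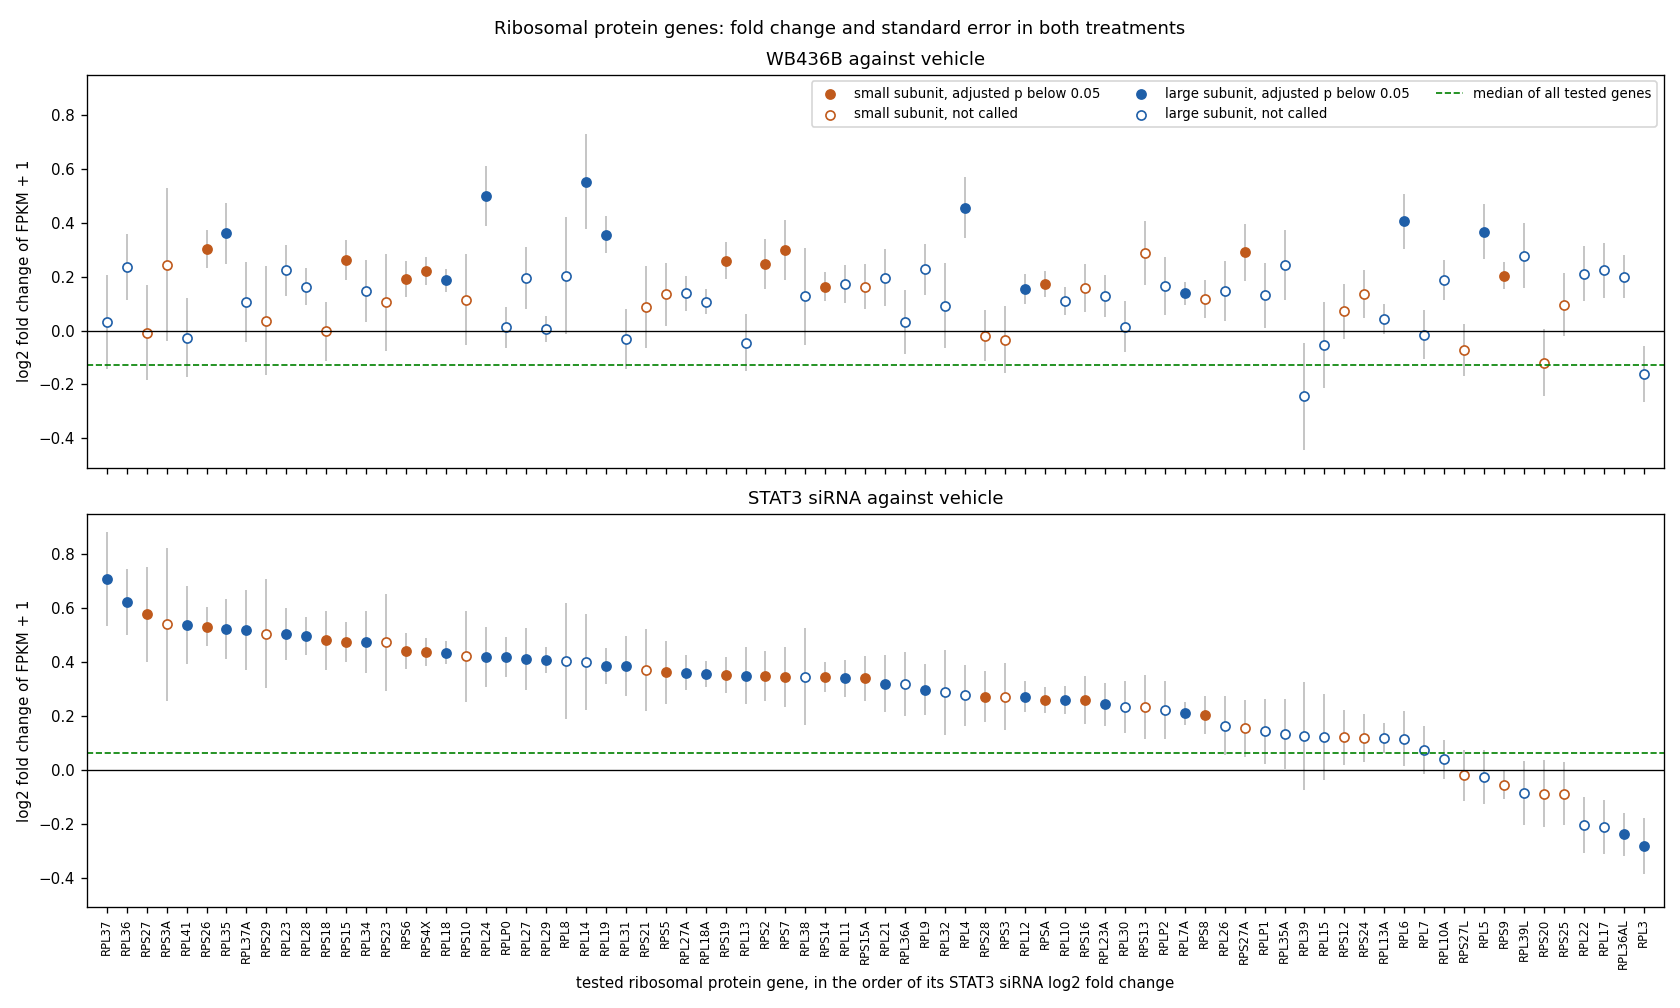
Log2 fold change of FPKM + 1 (vertical axis, with its standard error) of 78 of the 80 tested members, ordered by the STAT3 siRNA value, under WB436B (top) and STAT3 siRNA (bottom), each against vehicle; filled points have an adjusted p below 0.05, and the dashed line is the median of all 12747 tested genes. Most members lie above 0 under STAT3 siRNA, with RPL37 highest (0.71), and over all 80 members 42 were called higher and 2 lower there, while 21 were called higher under WB436B for FPKM as deposited (8 to 49 under other scalings).

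Under WB436B some ribosomal protein transcripts were higher and their median lay above that of all genes, with counts that turned on the scaling. For FPKM as deposited, 21 of the 80 members were called higher (26.2%), where 24.9% of all tested genes were, so this share was near that of all genes. None was called lower in limma, and none had an unadjusted p below 0.05 in that direction, where 41.1% of all genes were called lower. The median log2 fold change was 0.15 over the members and -0.13 over all genes, and 67 of the 80 members had a positive value. With a filter of 5 FPKM the median of all genes was 0.02, and that of the members lay 0.13 above it. Of members and all genes, 27.8% and 34.8% were then called higher, and 0% and 34.3% lower. The median was 0.15 for both subunits, with 11 of 32 small-subunit genes and 10 of 48 large-subunit genes called higher. Small-subunit and large-subunit counts were 15 and 28 with equal totals, 17 and 32 under median-of-ratios scaling, and 2 and 6 after quantile normalization. Under each of these other scalings the larger share lay with the large subunit, so the order of the subunits depended on the scaling. The groups did not overlap upward for 20 members (25%), where this held for 26.8% of all genes, and for no member downward, where it held for 43.3%.

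These WB436B counts depended on the scaling and on WB436B 3. Median-of-ratios scaling, which sets the typical gene equal between libraries, raised the log2 fold change of all genes by 0.13 and called 49 members higher (61.2%), where 33.1% of all genes were called. Scaling to equal totals called 43 members higher (53.8%), where 27.8% of all genes were. Quantile normalization raised all genes by 0.16, called 8 members higher (10%), where 32.4% of all genes were, and 2 lower (2.5%), where 28.7% of all genes were, and left the members' median only 0.0080 above that of all genes, against 0.28 for FPKM as deposited. Without WB436B 3, 35 members were called higher (43.8%), where 23.3% of all genes were, whereas 13 were (16.2%) without WB436B 1, where 23.2% of all genes were, and 13 without WB436B 2, where 22.6% of all genes were.

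**Figure D3:**
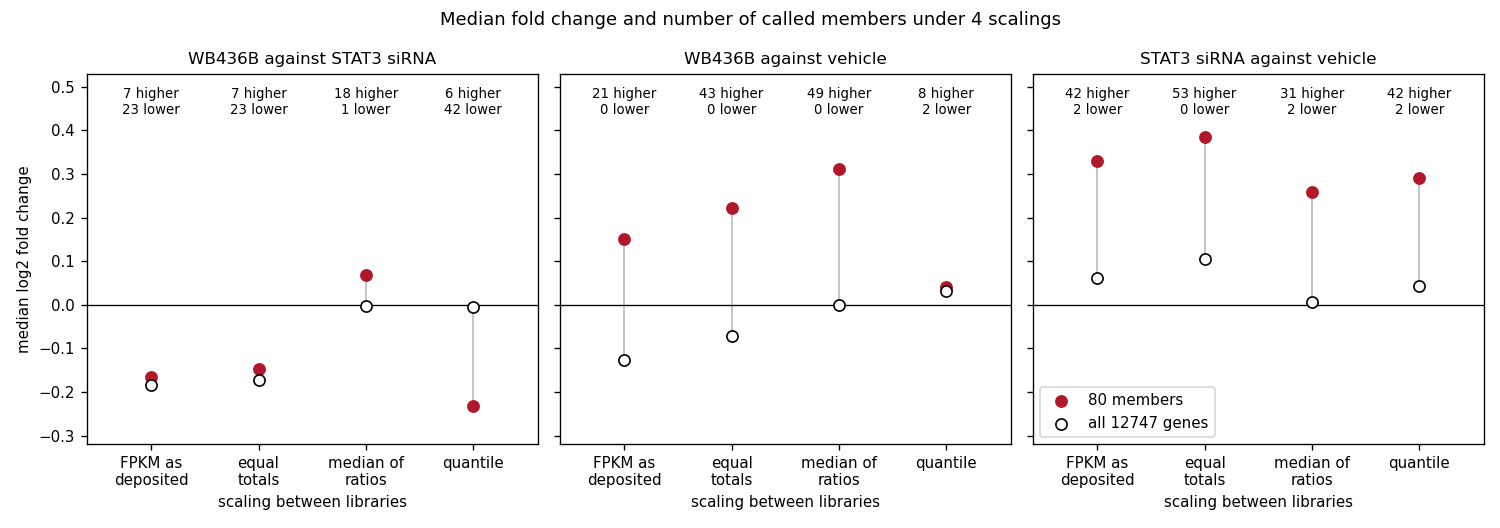
Median log2 fold change of the 80 members (filled) and of all 12747 tested genes (open) in each comparison, for FPKM as deposited and 3 other scalings between libraries, with the number of members called higher and lower. The members lie above all genes under each scaling in STAT3 siRNA against vehicle, nearly coincide with them under quantile normalization in WB436B against vehicle (0.0080 apart), and change side in WB436B against STAT3 siRNA.

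The largest WB436B value belonged to RPL14, a large-subunit protein. It stood at 56.8, 56.0 and 38.3 FPKM in WB436B libraries, against 30.3, 39.8 and 31.1 FPKM in vehicle libraries. The groups overlapped through WB436B 3 and vehicle 2, with a log2 change of 0.55 (SE 0.177, adjusted p = 0.023, limma), and the call was lost without vehicle 1 or 3, without WB436B 1 or 2, and after quantile normalization. RPL24, which forms a bridge between the subunits, had the largest WB436B increase among members whose groups did not overlap. It stood at 246, 237 and 197.5 FPKM in WB436B libraries, against 152, 147 and 181 FPKM in vehicle libraries. Every WB436B library exceeded every vehicle library, with a log2 change of 0.50 (SE 0.111, adjusted p = 0.0040, limma). RPL4, whose protein lines the peptide tunnel, stood at 221, 263 and 275 FPKM in WB436B libraries, against 203, 167.5 and 181 FPKM in vehicle libraries. Its groups were apart and its log2 fold change was 0.46 (SE 0.114, adjusted p = 0.0073). RPL6, a large-subunit protein without a TOP-like tract at its listed start, stood at 149, 177 and 145 FPKM in WB436B libraries, against 132, 105 and 118 FPKM in vehicle libraries, a log2 change of 0.41 (SE 0.102, adjusted p = 0.0075).

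RPL5 and RPL11 carry the 5S ribosomal RNA into the large subunit. RPL5 stood at 266, 251 and 238 FPKM in WB436B libraries and 163, 199 and 216 FPKM in STAT3 siRNA libraries, against 188, 188 and 208 FPKM in vehicle libraries. The WB436B libraries lay above all others, with a log2 fold change of 0.37 against vehicle (SE 0.101, adjusted p = 0.011), while the STAT3 siRNA libraries overlapped the vehicle libraries (-0.03, adjusted p = 0.85). RPL11 stood at 306, 289 and 252 FPKM in WB436B libraries and 320, 309 and 320 FPKM in STAT3 siRNA libraries, against 252, 240 and 258 FPKM in vehicle libraries. Only the STAT3 siRNA libraries of RPL11 were clear of the vehicle libraries, with a log2 change of 0.34 (SE 0.0695, adjusted p = 0.0036). Its WB436B value was 0.17 (adjusted p = 0.055).

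RPL19, at the tunnel exit, stood at 465, 446.5 and 441 FPKM in WB436B libraries, against 329, 350 and 379 FPKM in vehicle libraries, a log2 change of 0.36 (SE 0.0678, adjusted p = 0.0017). RPS26 stood at 166.5, 158 and 144 FPKM under WB436B and so lay above its vehicle libraries here as well, with a log2 change of 0.30 (SE 0.0719, adjusted p = 0.0056). RPS15 and RPS19 belong to the head of the small subunit, and RPS19 is the gene most often mutated in Diamond-Blackfan anaemia. RPS15 stood at 79.9, 85.8 and 94.8 FPKM in WB436B libraries, against 72.4, 74.5 and 69.5 FPKM in vehicle libraries, a log2 fold change of 0.26 (adjusted p = 0.013). RPS19 stood at 169, 153.5 and 150.3 FPKM in WB436B libraries, against 130.2, 139 and 125 FPKM in vehicle libraries, a log2 fold change of 0.26 (adjusted p = 0.0089). The groups of both genes were apart, and neither these 2 nor RPL19 was called after quantile normalization (0.13 to 0.14).

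RPL24, RPL35, RPL4, RPL5, RPL6 and RPS26 were the 6 of the 21 that were called higher under each of the 3 other scalings as well. RPL35 stood at 399, 371 and 300 FPKM in WB436B libraries and overlapped its vehicle libraries, with a log2 change of 0.36 (SE 0.112, adjusted p = 0.020) that lost its call without vehicle 2 (0.28), WB436B 1 (0.27) or WB436B 2 (0.33). RPSA, a small-subunit protein first described as a laminin receptor, stood at 188, 184 and 177 FPKM in WB436B libraries and 193, 196.5 and 193 FPKM in STAT3 siRNA libraries, against 158, 156 and 173 FPKM in vehicle libraries. All 6 treated libraries of RPSA lay above its vehicle libraries, with log2 fold changes of 0.17 under WB436B (SE 0.0475, adjusted p = 0.011) and 0.26 under STAT3 siRNA (SE 0.0475, adjusted p = 0.0020). Under STAT3 siRNA, 29 of the 42 members called higher stayed called higher under all 3 other scalings. How many of all called genes stay called under every scaling was not counted in any comparison.

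**Figure D4:**
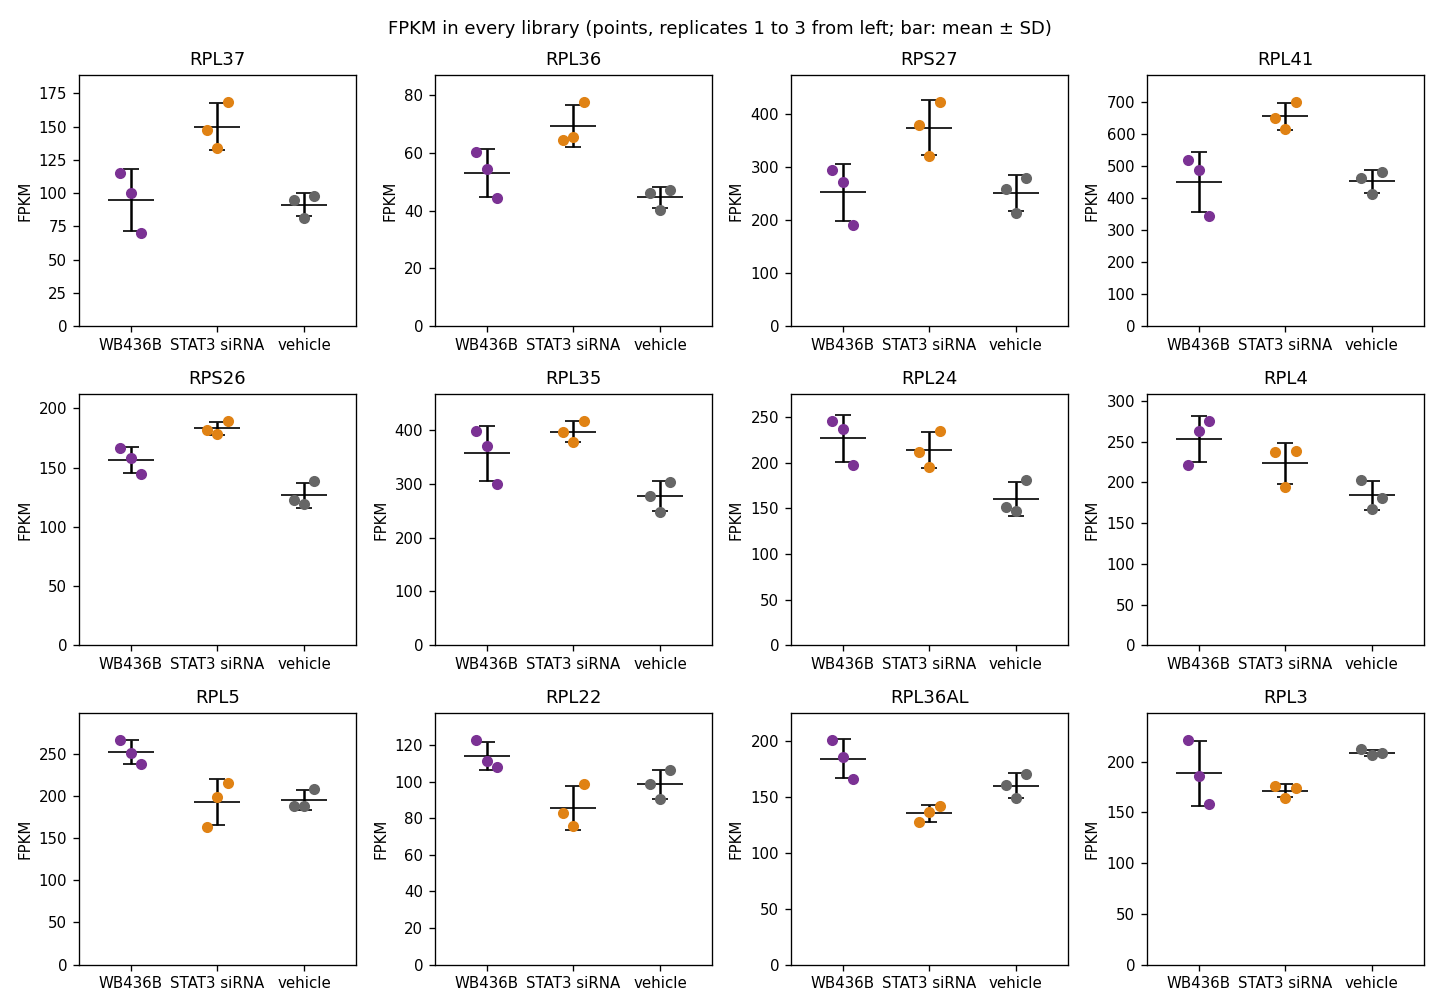
FPKM (vertical axes, from 0) of 12 members in the 9 libraries, with the WB436B, STAT3 siRNA and vehicle groups from left to right and a bar for each group's mean ± SD. RPL37, RPL36, RPS27 and RPL41 stand apart in the STAT3 siRNA libraries, with RPL37 at 134 to 169 FPKM there, while the WB436B libraries of RPL5 (238 to 266 FPKM) lie above all others.

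The direct comparison of WB436B with STAT3 siRNA asked whether both treatments left the ribosomal protein transcripts at different levels. For FPKM as deposited, 7 members were called higher under WB436B (8.75%), where 20% of all tested genes were, and 23 were called lower (28.7%), where 44.1% of all genes were. The median log2 fold change was -0.17 over the members and -0.18 over all genes, so the members lay near the typical gene under this scaling and filter. With a filter of 5 FPKM their median lay 0.11 below that of all genes, and after quantile normalization 0.23 below. Most of the lower calls depended on the scaling. Median-of-ratios scaling, which raised all genes by 0.18 here, called 18 members higher (22.5%), where 31.5% of all genes were, and 1 lower (1.25%), where 30.7% of all genes were. Of the 23 members called lower for FPKM as deposited, 6 changed sign under it and 17 kept their sign, while none of the 7 higher members changed sign. Quantile normalization, which also raised all genes by 0.18, called 6 members higher (7.5%) and 42 lower (52.5%), where 28.1% of all genes were called in each direction. Called alike under every scaling were 5 of the 7 higher members (RPL17, RPL22, RPL36AL, RPL39L and RPL5) and 1 of the 23 lower members (RPL29). The count of lower members was 14 (17.5%) without STAT3 siRNA 3, where 41% of all genes were called lower. It was 31 (38.8%) without WB436B 1, where 41.3% of all genes were.

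Among the members higher under WB436B, RPL36AL stood at 200.4, 185 and 166 FPKM in WB436B libraries, against 127, 136 and 141 FPKM in STAT3 siRNA libraries. The groups did not overlap, and the log2 fold change was 0.44 (SE 0.0804, adjusted p = 0.0014, limma). RPL17, whose protein lines the peptide tunnel beside RPL4, stood at 114, 103 and 92.7 FPKM in WB436B libraries, against 73.8, 82.6 and 72.1 FPKM in STAT3 siRNA libraries, a log2 change of 0.43 (SE 0.101, adjusted p = 0.0052). The RPL17 gene model shares 35.3% of its exon bases with other gene models, mainly the read-through RPL17-C18orf32. RPL22, an RNA-binding protein of the large subunit, stood at 123, 111 and 108 FPKM in WB436B libraries, against 82.9, 75.5 and 98.8 FPKM in STAT3 siRNA libraries. The groups of RPL22 were apart, with a log2 change of 0.41 (SE 0.103, adjusted p = 0.0072). RPL5 differed by 0.39 (SE 0.101, adjusted p = 0.0084), with its WB436B libraries above all STAT3 siRNA libraries.

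RPL39L stood at 6.35, 5.55 and 5.49 FPKM in WB436B libraries, against 4.95, 4.17 and 3.75 FPKM in STAT3 siRNA libraries, a log2 change of 0.36 (SE 0.12, adjusted p = 0.027). The call was lost without STAT3 siRNA 2 (0.35), STAT3 siRNA 3 (0.29) or WB436B 1 (0.31), and the gene drew few fragments. RPL6 stood at 136, 126 and 121 FPKM in STAT3 siRNA libraries, below its WB436B libraries, and differed by 0.29 (adjusted p = 0.034), a call lost without STAT3 siRNA 2 (0.28), STAT3 siRNA 3 (0.25) or WB436B 2 (0.20). RPS9, a protein of the mRNA entry of the small subunit, stood at 100.6, 92.3 and 88.7 FPKM in WB436B libraries, against 77.0, 78.0 and 79.1 FPKM in STAT3 siRNA libraries. Its groups were well apart, with a log2 change of 0.26 (SE 0.0514, adjusted p = 0.0021), and it was the small-subunit gene among the 7. RPL6 and RPS9 were no longer called after quantile normalization (0.17 and 0.12).

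RPL29, a large-subunit protein, was the member called lower under WB436B whatever the scaling. It stood at 134, 130 and 123 FPKM in WB436B libraries and 172, 170.1 and 169.5 FPKM in STAT3 siRNA libraries, against 123, 136 and 127 FPKM in vehicle libraries. Its WB436B libraries overlapped the vehicle libraries, and both lay far below the narrow STAT3 siRNA values, a difference of -0.40 between WB436B and STAT3 siRNA (SE 0.0488, adjusted p = 0.00013). RPLP0, the base of the P stalk that recruits translation factors, followed the same order. It stood at 247, 242 and 227 FPKM in WB436B libraries and 320, 333 and 298 FPKM in STAT3 siRNA libraries, against 223, 264 and 225 FPKM in vehicle libraries. WB436B and STAT3 siRNA differed by -0.41 (SE 0.0748, adjusted p = 0.0014), a call lost under median-of-ratios scaling (-0.17).

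The other members of this group were lower under WB436B than under STAT3 siRNA for FPKM as deposited, with the call of each lost under median-of-ratios scaling. RPL37 stood at 115, 100.4 and 69.7 FPKM in WB436B libraries, all below its STAT3 siRNA libraries, and differed by -0.68 (SE 0.175, adjusted p = 0.0086). RPS27 stood at 295, 271 and 191 FPKM in WB436B libraries, again below every STAT3 siRNA library, and differed by -0.58 (SE 0.177, adjusted p = 0.018), a call also lost without STAT3 siRNA 3 (-0.49). RPL41 stood at 520, 490 and 343 FPKM in WB436B libraries and differed by -0.56 (SE 0.146, adjusted p = 0.0087). In all 3 genes WB436B 3 was the lowest library of the 9. RPS18, a head protein that touches the large subunit, stood at 408, 359 and 296 FPKM in WB436B libraries, against 478, 483 and 515 FPKM in STAT3 siRNA libraries, a difference of -0.48 (SE 0.109, adjusted p = 0.0043). RPL31, at the tunnel exit, stood at 46.8, 40.9 and 34.1 FPKM in WB436B libraries, against 54.6, 50.3 and 57.5 FPKM in STAT3 siRNA libraries, a difference of -0.42 (adjusted p = 0.011). RPL37A differed by -0.41 (adjusted p = 0.037), a call also lost without any of vehicle 1, STAT3 siRNA 1, STAT3 siRNA 3, WB436B 2 or WB436B 3 (-0.25 to -0.45).

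Members that lie together in the ribosome were also counted as groups, beside the 24.9% of all genes called higher under WB436B and 29.8% under STAT3 siRNA. Of all genes, 41.1% and 22.3% were called lower. The shares called higher were 27.8% and 33% with equal totals, and 33.1% and 24.3% under median-of-ratios scaling. After quantile normalization they were 32.4% and 28.7%. With 1 library left out they ran from 22.6% to 24.9% under WB436B and from 26.2% to 29.7% under STAT3 siRNA. Of the 8 proteins at the tunnel exit, 2 were called higher under WB436B and 4 under STAT3 siRNA, and none lower in either. The WB436B count was 1 after quantile normalization and without vehicle 2, WB436B 1 or WB436B 2, 4 without WB436B 3, 5 with equal totals and 6 under median-of-ratios scaling. The STAT3 siRNA count was 2 under median-of-ratios scaling and without vehicle 2, STAT3 siRNA 1 or STAT3 siRNA 3. RPL22 belongs to them and under STAT3 siRNA averaged 87% of its vehicle level (-0.20 on the log2 scale, adjusted p = 0.13), whereas RPL35 averaged 144%. In the P stalk, RPLP0 alone was called for FPKM as deposited, with a log2 fold change of 0.42 under STAT3 siRNA (SE 0.0748, adjusted p = 0.0018), against 0.01 under WB436B (adjusted p = 0.90). RPLP1 and RPLP2, the acidic proteins of the stalk, had STAT3 siRNA values of 0.14 (adjusted p = 0.36) and 0.22 (adjusted p = 0.12), and WB436B values of 0.13 (adjusted p = 0.37) and 0.17 (adjusted p = 0.21). Of the 14 proteins of the small-subunit head, 3 were called higher under WB436B and 6 under STAT3 siRNA, with medians of 0.11 and 0.27. Under WB436B, 5 head proteins were called under median-of-ratios scaling and none after quantile normalization, and under STAT3 siRNA 3 were called under median-of-ratios scaling and 9 with equal totals. Of the 18 members listed as Diamond-Blackfan anaemia genes, 6 were called higher under WB436B and 10 under STAT3 siRNA, with none lower in either. The WB436B count was 10 without WB436B 3 and with equal totals, 11 under median-of-ratios scaling and 3 after quantile normalization, and the STAT3 siRNA count was 5 without vehicle 2 or without STAT3 siRNA 3.

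Some ribosomal proteins have a second gene among the members. RPL36AL and RPL36A encode almost the same protein. RPL36A stood at 98.05, 89.4 and 72.3 FPKM in WB436B libraries and 101.4, 98.8 and 115 FPKM in STAT3 siRNA libraries, against 84.3, 75.9 and 92.3 FPKM in vehicle libraries. Its STAT3 siRNA libraries were above all vehicle libraries without passing the test (0.32, adjusted p = 0.052), while RPL36AL was called lower there. RPL39, which reaches into the tunnel exit, stood at 121, 108 and 80.8 FPKM in WB436B libraries and 128.5, 119.5 and 148 FPKM in STAT3 siRNA libraries, against 113, 97.5 and 159 FPKM in vehicle libraries, with overlapping groups throughout. RPS27L had log2 fold changes of -0.07 under WB436B (adjusted p = 0.53) and -0.02 under STAT3 siRNA (adjusted p = 0.87), beside the STAT3 siRNA increase of RPS27. RPL10, which joins the large subunit late in its assembly, was called higher under STAT3 siRNA (0.26, SE 0.0529, adjusted p = 0.0036) and had a WB436B value of 0.11 (adjusted p = 0.098). The RPL10 model shares 55.5% of its exon bases with other gene models, mainly DNASE1L1, so its fragments may be split.

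RPS3A, a protein of the small subunit, varied too much between libraries for a comparison. It stood at 86.5, 109 and 106 FPKM in WB436B libraries and 106, 142 and 123 FPKM in STAT3 siRNA libraries, against 49.8, 105 and 114 FPKM in vehicle libraries. Vehicle 1 was the lowest of the 9 libraries, and the standard error of the log2 fold changes of RPS3A was 0.284.

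The WB436B libraries differed from one another by a pattern along coding length. WB436B 3 lay below the mean of the other 2 WB436B libraries for most members, with a median deviation of -0.226 on the log2(FPKM + 1) scale, and WB436B 1 lay above by 0.184. The 20 members with the shortest coding sequences (25 to 117 codons) deviated by a median of -0.365 in WB436B 3 and 0.307 in WB436B 1. The 21 members with the longest (204 to 427 codons) deviated by -0.137 in WB436B 3 and 0.0983 in WB436B 1. Across the 80 members, Spearman's rho between deviation and coding length was 0.595 in WB436B 3 and -0.628 in WB436B 1, a description over genes that share these libraries. The deviations of a member cancel out over the libraries of its group, so opposite directions in WB436B 1 and WB436B 3 are partly built in. In vehicle libraries the same rho ran from -0.257 to 0.465, and in STAT3 siRNA libraries from -0.42 to 0.358.

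**Figure D5:**
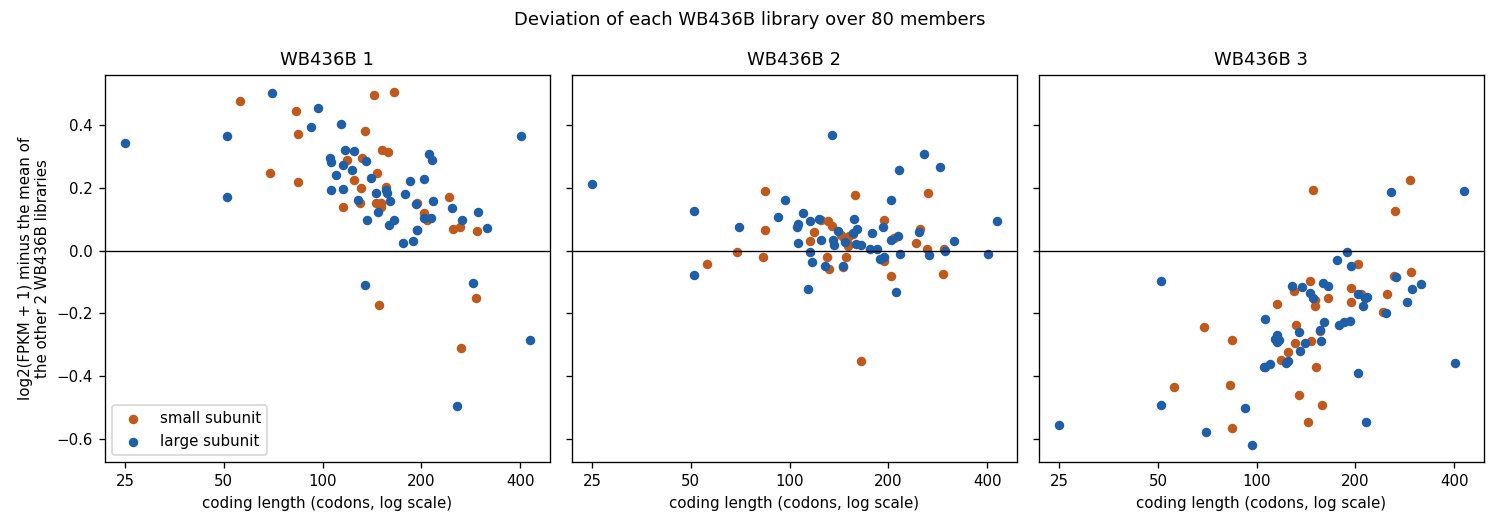
Deviation of each WB436B library from the mean of the other 2 (vertical axis, log2(FPKM + 1)) against coding length in codons (horizontal log axis) for the 80 tested members, coloured by subunit. Short members deviate most, upward in WB436B 1 (median 0.307 for the shortest 20) and downward in WB436B 3 (median -0.365). The deviations of a member cancel out over the libraries, so these opposite directions are partly built in.

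Coding length ran through the WB436B comparison in the same libraries. The counts by length stand beside 24.9% of all genes called higher under WB436B and 29.8% under STAT3 siRNA. Of the 20 shortest members, 1 was called higher under WB436B and 8 under STAT3 siRNA, and of the 21 longest, 9 were called higher under WB436B and 10 under STAT3 siRNA. Spearman's rho between log2 fold change and coding length was 0.25 for WB436B against vehicle and -0.111 for STAT3 siRNA against vehicle (80 members). By subunit it was 0.422 (small) and 0.132 (large) for WB436B, and 0.0851 (small) and -0.247 (large) for STAT3 siRNA. Without WB436B 3, the rho over the 80 members for WB436B was -0.0559 and their median log2 fold change was 0.21. The part of that library in the WB436B values of short members was otherwise not tested.

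Called members were found with and without a TOP-like start, beside 24.9% of all genes called higher under WB436B and 29.8% under STAT3 siRNA. Of the 54 tested members with such a start, 15 were called higher under WB436B (median 0.15) and 28 under STAT3 siRNA (median 0.33). Of the 10 with an entry and no such tract, 4 were called higher under WB436B (median 0.22) and 5 under STAT3 siRNA (median 0.35). Both members called lower under STAT3 siRNA, RPL3 and RPL36AL, have the tract printed above.

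The ribosomal proteins outside the symbol rule were mostly higher under WB436B. All 5 on the list, FAU, RACK1 and RPL22L1 among them, were called higher there, where 24.9% of all genes were. After quantile normalization 3 were, where 32.4% of all genes were. The count was 4 without any single vehicle library, WB436B 1 or WB436B 2. RACK1 (0.21, adjusted p = 0.032, limma) lost its call in each of these settings. Compared directly, 3 of the 5 were higher under WB436B than under STAT3 siRNA, where 20% of all genes were. After quantile normalization 1 was, where 28.1% of all genes were. RPL22L1, the paralog of RPL22, stood out, averaging 8.45 ± 0.609 FPKM under WB436B and 3.57 ± 0.711 FPKM under STAT3 siRNA, against 2.87 ± 0.241 FPKM under vehicle (SD, n = 3 each). Its WB436B mean was 294% of that under vehicle, and the log2 fold change was 1.29 (SE 0.109, adjusted p = 1.3e-05). FAU, which encodes RPS30 fused to a ubiquitin-like protein, had 0.33 under WB436B (adjusted p = 0.0041) and 0.11 under STAT3 siRNA (adjusted p = 0.24).

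Most factors that escort ribosomal proteins were called higher under each treatment, where 24.9% of all genes were under WB436B and 29.8% under STAT3 siRNA. Of 11 genes for ribosomal protein chaperones and 5S particle assembly, 10 were called higher under WB436B (median 0.97) and 7 under STAT3 siRNA (median 0.42), with none lower under WB436B and 1 lower under STAT3 siRNA, counts that each of the 3 other scalings left as they were. Of all genes, 41.1% were called lower under WB436B and 22.3% under STAT3 siRNA. Compared directly, 7 of the 11 were higher under WB436B than under STAT3 siRNA and none lower. Of all genes, 20% were called higher and 44.1% lower in that comparison. The higher count moved to 11 under median-of-ratios scaling, where 31.5% of all genes were called higher. It was 8 after quantile normalization, where 28.1% were. RPF2, which with RRS1 brings RPL5, RPL11 and the 5S RNA to the large subunit, averaged 15.7 ± 0.749 FPKM under WB436B and 9.31 ± 0.423 FPKM under STAT3 siRNA, against 4.8 ± 0.647 FPKM under vehicle (SD, n = 3 each). Its log2 fold changes were 1.53 under WB436B (SE 0.082, adjusted p = 9.5e-07) and 0.84 under STAT3 siRNA (adjusted p = 6.4e-05). RRS1 rose by 1.18 under WB436B (adjusted p = 9.3e-07) and 0.48 under STAT3 siRNA (adjusted p = 0.00032), and GRWD1, whose yeast counterpart escorts the RPL3 protein, by 0.95 (adjusted p = 4.8e-07) and 0.59 (adjusted p = 1.4e-05). LTV1, which acts in the maturation of the small subunit, was the gene called lower under STAT3 siRNA. It averaged 68.1 ± 1.77 FPKM under WB436B and 22.4 ± 0.627 FPKM under STAT3 siRNA, against 27.2 ± 1.23 FPKM under vehicle, with log2 fold changes of 1.29 (adjusted p = 1.4e-07) and -0.27 (adjusted p = 0.0013). NMD3 was called under neither treatment (0.33 under WB436B, adjusted p = 0.17, and 0.0041 under STAT3 siRNA, adjusted p = 0.99), and PDCD2 and HEATR3 were not called under STAT3 siRNA (0.25, adjusted p = 0.18, and 0.12, adjusted p = 0.076).

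Other TOP transcripts were counted beside the same shares of all genes called higher (24.9% under WB436B and 29.8% under STAT3 siRNA) and lower (41.1% and 22.3%). Of 14 outside the ribosome, 5 were called higher and 2 lower under WB436B, and 4 higher and 1 lower under STAT3 siRNA, with a median of 0.09 in each, which was 0.25 under median-of-ratios scaling and -0.01 after quantile normalization for WB436B. The WB436B counts were 10 higher and 0 lower under median-of-ratios scaling and 7 higher and 0 lower with equal totals, and none was called lower without vehicle 3, WB436B 1 or WB436B 3. The higher count for STAT3 siRNA was 2 under median-of-ratios scaling and after quantile normalization. EEF1G, a subunit of the elongation factor that recharges EEF1A, averaged 430 ± 14.1 FPKM under WB436B and 543 ± 3.41 FPKM under STAT3 siRNA, against 425 ± 4.6 FPKM under vehicle. It rose by 0.35 under STAT3 siRNA (adjusted p = 0.00011) and had 0.02 under WB436B (adjusted p = 0.71). NPM1, a nucleolar chaperone, rose by 1.04 under WB436B (adjusted p = 5.2e-06) and had 0.12 under STAT3 siRNA (adjusted p = 0.22). Of 15 genes listed around LARP1 and the mTOR pathway for the control of TOP translation, 5 were called higher and 3 lower under WB436B. Under STAT3 siRNA 7 were called higher and none lower. The WB436B count was 9 higher under median-of-ratios scaling. For STAT3 siRNA it was 6 higher under that scaling and 10 with equal totals. LARP1, which binds the TOP sequence, averaged 47.1 ± 1.68 FPKM under WB436B and 54.1 ± 2.86 FPKM under STAT3 siRNA, against 35.5 ± 0.749 FPKM under vehicle, with log2 fold changes of 0.40 (adjusted p = 0.00012) and 0.59 (adjusted p = 2.5e-05). Of 10 genes of ribosome surveillance, 8 were called higher and 1 lower under WB436B, and 3 higher under STAT3 siRNA. The largest WB436B value among them belonged to ABCE1, which splits ribosomes after termination, with 1.30 (adjusted p = 2.4e-07) beside 0.36 under STAT3 siRNA (adjusted p = 0.00050). The largest STAT3 siRNA value belonged to RNF14, with 0.54 (adjusted p = 0.00021) beside 0.21 under WB436B (adjusted p = 0.022), the second lost without vehicle 1 or 3 or WB436B 1 or 3. The surveillance count for WB436B was 5 higher without vehicle 3 or WB436B 3, and none was called lower with equal totals or under median-of-ratios scaling. For STAT3 siRNA it was 2 higher under median-of-ratios scaling and after quantile normalization.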

How the data were processed

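Values were FPKM, which the authors deposited as one table of 60564 human Ensembl rows with a column per library. A further 3 columns were empty and not used. Bowtie 0.12.2 and the build mm8 are named per the submitters' processing notes. Since mm8 is a mouse build and the rows are human, it is uncertain which build the values rest on. The sources used here give no counting program or strand setting. Low FPKM values of genes with several transcripts came out whole (within 0.02 of a fragment) in 13.9% to 17.8% of cases when multiplied by the annotated exon union, and in 3.5% to 4.1% with the median transcript length. FPKM was therefore read as divided by about the union length, with depth estimated from the same steps. Most values did not come out whole, and for genes with a single transcript 13.4% to 19.9% did. The step used was held by 231 to 315 genes per library, and 168 to 207 lay near a smaller step, so the depth is uncertain. By this estimate a gene at 1 FPKM rested on 14.9 to 47.2 fragments for each kilobase.

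The genes that reached 1 FPKM in 3 or more of 9 libraries were analysed as log2(FPKM + 1) in 1 limma-trend model of 3 groups (limma 3.58.1, R 4.3.3, 6 residual degrees of freedom, two-sided, Benjamini-Hochberg over 12747 genes, called below 0.05). This limma fit gives all adjusted p-values of genes, and fold changes on its scale understate changes of low genes. The script was tested on simulated data. Exon unions, overlaps and coding lengths came from GENCODE release 29, and start windows from RefSeq (GRCh38.p14). A motif counted for a gene if any listed start held it. The members and lists were chosen with earlier results of these data known. Named with values were RPSA, the P stalk, 5S RNP proteins and paralog forms, the 3 highest and 3 lowest members under vehicle, per comparison and direction the 8 largest called changes with groups that did not overlap, and up to 4 genes of each other list. RPS3A and list genes beyond that number were named after their values were seen. Some items these rules would name are not reported here. Alternatives are given in the closing section.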

Additional observations from a re-analysis of the deposited data

Results flagged for a closer look

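In 9 members with an effect against vehicle called, the log2 fold changes had opposite signs under WB436B and STAT3 siRNA. The difference between both effects also passed the test (limma, adjusted p below 0.05, 3 libraries per group). RPL17, RPL22 and RPL39L had opposite signs and a called difference too, but neither effect against vehicle was called. Their values were 0.22, 0.21 and 0.28 under WB436B and -0.21, -0.20 and -0.09 under STAT3 siRNA. The share of all genes that meet these conditions was not counted. In most of the 9 members one of the effects was close to 0. RPS27 had -0.01 under WB436B and 0.58 under STAT3 siRNA, a difference of -0.58 (adjusted p = 0.018). RPL41 had -0.03 under WB436B and 0.54 under STAT3 siRNA, a difference of -0.56 (adjusted p = 0.0087). RPS18 had -0.0035 under WB436B and 0.48 under STAT3 siRNA, a difference of -0.48 (adjusted p = 0.0043). RPL31 had -0.03 under WB436B and 0.38 under STAT3 siRNA, a difference of -0.42 (adjusted p = 0.011). RPL13 had -0.05 under WB436B and 0.35 under STAT3 siRNA, a difference of -0.39 (adjusted p = 0.011). RPS28 had -0.02 under WB436B and 0.27 under STAT3 siRNA, a difference of -0.29 (adjusted p = 0.026). The differences of these 6 genes lost their call under median-of-ratios scaling. That of RPS28 also lost it with equal totals and without STAT3 siRNA 2 or 3 or WB436B 2 or 3. That of RPS27 also lost it without STAT3 siRNA 3. RPL36AL had 0.20 under WB436B and -0.24 under STAT3 siRNA, a difference of 0.44 (adjusted p = 0.0014). RPL5 had 0.37 under WB436B and -0.03 under STAT3 siRNA, a difference of 0.39 (adjusted p = 0.0084). RPS9 had 0.20 under WB436B and -0.06 under STAT3 siRNA, a difference of 0.26 (adjusted p = 0.0021). The differences of RPL36AL and RPL5 stayed called under the 3 other scalings and without each library in turn, and that of RPS9 was lost after quantile normalization.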

How the results depend on the processing

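The count of members higher under STAT3 siRNA (42) fell to 25 at an adjusted p below 0.01 and to 25 with a replicate block and median-of-ratios scaling, and lay between 29 and 47 when 1 library was left out. Of all genes, 21% were called higher at 0.01, 22.7% with that block and scaling, and 26.2% to 29.7% with 1 library left out. The 2 lower members became 0 with no filter, with equal totals and at 0.01, 1 with pseudogene FPKM added, with no variance trend and with the replicate block, 4 with the block and median-of-ratios scaling, and 0 to 2 with 1 library left out. Among all genes, 9.1% were called lower with no filter, 19% with equal totals and 16.7% at 0.01. With the block and median-of-ratios scaling 24.5% were, and with 1 library left out 19.6% to 22.1%. Members higher under WB436B (21) numbered 12 with no filter, 43 with equal totals, 49 with median-of-ratios scaling with or without the ribosomal protein genes, 8 after quantile normalization, 48 with the block and median-of-ratios scaling, 9 at 0.01 and 13 to 35 with 1 library left out. Of all genes, 8.53% were called higher with no filter, 27.8% with equal totals, 32.4% after quantile normalization and 19.4% at 0.01. Their share was 33.1% and 33.5% under both median-of-ratios scalings, 32.4% with the block added, and 22.6% to 24.9% with 1 library left out. Members lower under WB436B (0) numbered 2 after quantile normalization and 0 to 1 with 1 library left out, where 28.7% and 37.9% to 41% of all genes were called lower. In WB436B against STAT3 siRNA, the 7 higher members became 18 under both median-of-ratios scalings and 14 with the block added, and 5 to 8 with 1 library left out. Among all genes, 31.5% and 31.7% were called higher under those scalings, 30.5% with the block added and 18.4% to 20.5% with 1 library left out. The 23 lower members became 14 with no filter, 1 under both median-of-ratios scalings, 2 with the block added, 42 after quantile normalization, 9 at 0.01 and 14 to 31 with 1 library left out. Of all genes, 20% were called lower with no filter, 30.7% under both median-of-ratios scalings and 29.9% with the block added. Their share was 28.1% after quantile normalization, 35.5% at 0.01 and 40.8% to 44.5% with 1 library left out. Beyond what the scalings themselves construct, the cause was not tested. Among members named with values, the direction turned for RPS2 under WB436B after quantile normalization (-0.025). In WB436B against STAT3 siRNA it turned under median-of-ratios scaling, the same without ribosomal protein genes, and the same with the block, for RPL10 (0.085, 0.088 and 0.085), RPS26 (0.0049, 0.0080 and 0.0049) and RPS15 (0.018, 0.021 and 0.018). RPL27A, RPS14 and RPS4X also changed sign under median-of-ratios scaling there, and RPL7A after quantile normalization against vehicle. Under median-of-ratios scaling in WB436B against STAT3 siRNA, RPL37 (-0.44), RPL41 (-0.33) and RPS27 (-0.35) kept their sign without a call. The small-minus-large difference moved by less than the library spread under each alternative. It ran from -0.0196 to 0.0849 under WB436B, from 0.0481 to 0.205 under STAT3 siRNA and from -0.165 to -0.00457 between them with 1 library left out. Leaving out the 7 members with over 20% of exon bases shared, an alternative chosen after seeing the data, changed no count by more than 1.5 times. Libraries with the same replicate number share only a number. Their deviations correlated by -0.0847 to 0.158, and the block gave 17 members higher and 0 lower for WB436B and 39 higher and 1 lower for STAT3 siRNA, each against vehicle, and 6 higher and 19 lower between the treatments. With the block, 24% of all genes were called higher and 40% lower for WB436B, and 28.3% and 21.2% for STAT3 siRNA. Between the treatments, 19.4% of all genes were called higher and 43% lower. Depth limits RPL39L and RPS27L, which averaged 4.64 and 1.5 FPKM under vehicle.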
